A study of Mus musculus with 6106 samples.

Results

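Cells carrying transcripts of mitosis were examined among splenic regulatory T cells (Tregs), the Foxp3-expressing CD4 T cells that restrain immune responses. They were selected on measured values: a cell needed at least 500 transcript molecules (UMIs, unique molecular identifiers) and at least 2 UMIs summed over Mki67, Top2a, Ube2c, Ccnb2, Ccna2, Birc5, Cdk1 and Stmn1. This gate held 90 of the 5435 cells with at least 500 UMIs, out of 6106 deposited cells. The cells came from spleens of male mice aged 10 months whose strain is given as "B6 Nr4a1-Gfp Foxp3-Ires-Thy1.1". They had been sorted as DAPI-, TCRb+, CD4+ and FoxP3-Thy1.1+, from the bottom of the Nr4a1-GFP distribution (GFPlow, 0 to 20%), its middle (GFPmed, 40 to 60%) or its top (GFPhigh, 80 to 100%). All 3 groups carried both reporters, and no untreated or reporter-free control was analysed here. Each bin was 1 inDrops library, a droplet method that reads the 3' end of polyadenylated RNA, and the number of mice behind it is not given in the sources used here. Each bin is thus 1 library with 0 further replicates, no difference between bins was tested, and every interval below is at 95% and covers counting error only. The 74 gated cells that carry the account below held 38850, 62240 and 80738 UMIs in GFPlow, GFPmed and GFPhigh.

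A cell that divides copies its DNA in S phase, prepares for division in G2, and condenses and separates its chromosomes in mitosis. Replication genes are transcribed from late G1 under E2F factors, and mitotic genes later under the B-MYB and FOXM1 programme, so their transcripts mark where in the cycle a cell is. Most T cells in a resting spleen are out of cycle, and Tregs are kept by self-antigen recognition and interleukin 2. Nr4a1 is an early target of T cell receptor signalling, and Nr4a1-GFP is used as a reporter of that signalling.

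The label of the population was borne out in part. Of the 90 gated cells, 74 were led by T cell markers, meaning that the UMIs of Cd3d, Cd3e, Cd4, Lck and the other T cell genes of a 12-gene list were not exceeded by those of any other cell type's defining markers. In 12 gated cells the leading markers were erythroid, with 31 to 2428 UMIs over 11 globin, glycophorin, Klf1 and related genes. The other 4 were led by B cell, plasma cell, myeloid and CD8 T or NK cell markers, 1 cell each. Both GFPlow and GFPmed held 5 of the erythroid cells and GFPhigh held 2, and these cells supplied 23.1% of all UMIs of gated cells. Among erythroid-led cells 12 of 19 passed the gate (63.2%, exact Clopper-Pearson interval 38.4 to 83.7%), against 74 of 5283 T-led cells (1.40%, 1.10 to 1.76%). Only 2 of these 12 held any T cell marker UMI.

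Erythroid RNA set the top of the ranking when all 90 cells were pooled. Hba-a2, an alpha globin, had 6464 UMIs in gated cells against 6.77 expected from the other cells of the same bins, and Hbb-bt, a beta globin, had 2911 against 1.34. In the 74 T-led gated cells both had 0 UMIs, with 2.52 and 0.487 expected. Of the 11 defining erythroid markers 10 were at 0 in those 74 cells and the remaining one had a single UMI, in GFPhigh. The 5 defining plasma cell markers were all at 0 there. B cell markers summed to 128.7, 96.4 and 111.5 UMIs per 1000000 UMIs of the group (UPM) in gated T-led cells of GFPlow, GFPmed and GFPhigh, against 47.9, 52.9 and 79.4 UPM in other T-led cells, with 9 of 14 markers at 0. CD8 T or NK cell markers summed to 386, 128.5 and 235.3 UPM against 107.01, 69.9 and 127.3 UPM, with 7 of 12 at 0. In each bin a single cell held many of these UMIs: 10 of 15 in GFPlow, 4 of 8 in GFPmed and 14 of 19 in GFPhigh. Without that cell the levels were 135.3, 65.99 and 66.29 UPM, above the other cells only in GFPlow. Myeloid markers summed to 232, 224.9 and 247.7 UPM against 339, 365 and 410 UPM, with 12 of 15 at 0. Because these markers were used to define T-led cells, low levels in gated and other T-led cells alike follow in part from the definition. Between these groups, B cell markers lay higher in gated cells (combined log2 ratio 0.77, 0.13 to 1.41). So did CD8 T or NK cell markers (1.14, 0.70 to 1.59), with the single cells just described included. The part of these marker levels in the results below was not tested. The T-led cells carry the account that follows, and values over all 90 cells stand beside them. The division into T-led and other cells was added after the data had been seen.

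The T-led gated cells carried Treg transcripts about as often as other T-led cells. After each cell was thinned to 500 UMIs at random, Foxp3 was seen in 13 of 74 gated cells (17.6%, 9.70 to 28.2%) and in 15.7% of the 5209 others (14.7 to 16.7%). Unthinned, the shares were 41.9% and 31.6%, at median depths of 1829.5 and 1211 UMIs. At least 1 UMI of Foxp3, Il2ra, Ikzf2 or Ctla4 was found after thinning in 47.3% of gated cells (35.6 to 59.3%) and in 45.96% of others (44.6 to 47.3%). In the gated erythroid-led cells, which should lack it, Foxp3 was seen in 0 of 12 after thinning (0 to 26.5%) and in 1 of 12 unthinned, at a median depth of 3584.5 UMIs.

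Gated cells made up 1.27% of GFPlow cells (27 cells, 0.84 to 1.85%), 1.89% of GFPmed cells (29 of 1537, 1.27 to 2.70%) and 1.92% of GFPhigh cells (34 of 1775, 1.33 to 2.67%). Among T-led cells the shares were 1.014% in GFPlow (21 of 2071, 0.63 to 1.55%), 1.41% in GFPmed (21 of 1490, 0.87 to 2.15%) and 1.86% in GFPhigh (32 of 1722, 1.27 to 2.61%). The intervals of GFPlow and GFPhigh overlap. Depth moved with the gate: median totals of gated T-led cells were 1.43, 1.48 and 1.71 times those of the others, for example 1556 against 1085 UMIs in GFPlow and 1936 against 1131.5 UMIs in GFPhigh. When T-led cells of each bin were split into 4 equal groups by depth, 2.71%, 2.96% and 4.87% of the deepest were gated, against 0.19%, 0.54% and 0.46% of the shallowest. When every cell was thinned to 500 UMIs before gating, 9, 4 and 12 T-led cells remained in the gate, or 0.43%, 0.27% and 0.70%. The part of depth in the shares was not tested further.

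The gate is a range on a sum and its lower edge is close to the cells outside it. Of the 74 T-led cells 30 had a gate sum of exactly 2, 17 had 3 to 4 and 27 had 5 or more, and the highest sum was 58. Just outside, T-led cells with a sum of 1 numbered 92, 68 and 75 in the 3 bins, and 4974 cells had 0. A list of replication genes, the S phase list, stood at 1805 UPM (1448 to 2224) in cells with a sum of 2 and at 1793 UPM (1656 to 1938) in cells with a sum of 1. A list of mitotic genes without the gate genes stood at 2195 UPM (1799 to 2652) and 2241.5 UPM (2088.3 to 2403) in the same cells. Cells with a sum of 3 to 4 had 5094 UPM of the S phase list but 2233.4 UPM of the mitosis list. Of their S phase UMIs 86.7% came from 5 GFPhigh cells, and the 9 cells of GFPlow and GFPmed stood at 1346.4 UPM (822 to 2079). Cells with a sum of 5 or more had 9729 UPM (9106 to 10384) and 13655 UPM (12916 to 14427), against 1517 and 2027 UPM in cells with a sum of 0. The plot of list levels by gate sum shows this step. These are descriptions of the selected cells, since the same libraries chose them.

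**Figure D1:**
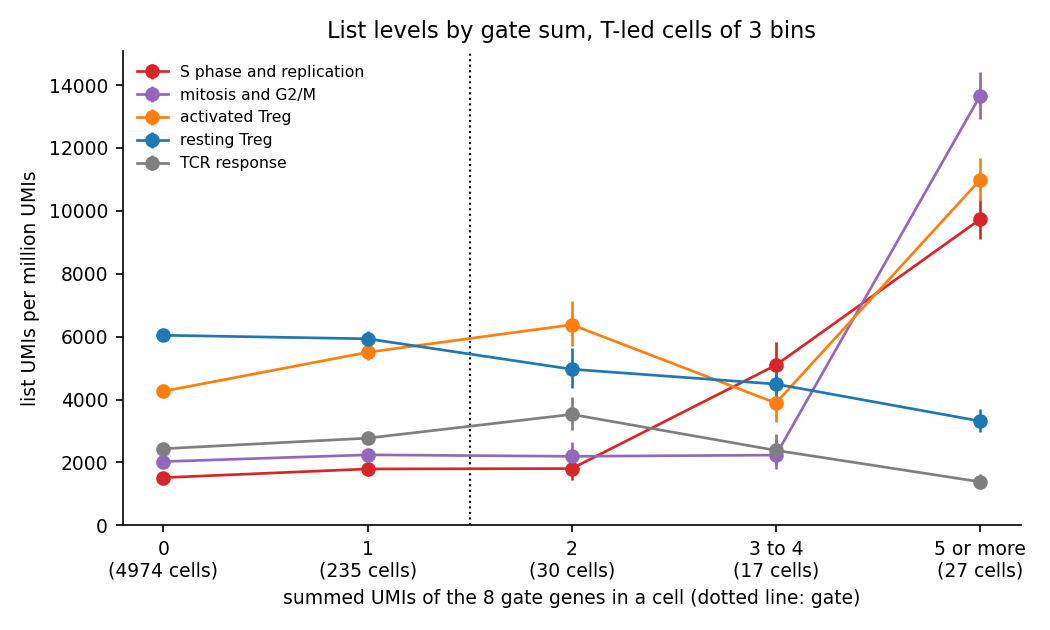
Levels of 5 gene lists, in UMIs per 1000000 UMIs of the group (UPM) with exact Poisson 95% intervals, in T-led cells grouped by the summed UMIs of the 8 gate genes. Cells at a sum of 2 lie near those outside the gate for the S phase (1805 UPM) and mitosis (2195 UPM) lists, and the 27 cells at 5 or more reach 9729 and 13655 UPM.

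Stmn1, which encodes the microtubule-destabilising protein stathmin, admitted more cells than any other gate gene did alone. It lies at chr4:134468320-134473843 on the plus strand (mm10, GENCODE M21) and had a UMI in 52 of the 74 T-led gated cells. In 22 of them it was the only gate gene seen, and 28 would leave the gate without it. Those 22 cells had 4232 UPM of the S phase list (3609 to 4932) and 2426 UPM of the mitosis list (1960 to 2969). A few GFPhigh cells carried the first value: 6 of them held 83.5% of its UMIs, and the 12 GFPhigh cells stood at 6176 UPM (5234 to 7240). The 10 such cells of GFPlow and GFPmed stood at 849 UPM (439 to 1482.5), against 1488 UPM in other T-led cells of those bins. The 18 T-led cells that passed on a single gene other than Stmn1 had 1289 UPM (921 to 1755.1) and 1998 UPM (1532 to 2561), close to cells with a sum of 0, and 1 of them was from GFPhigh.

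The gate genes themselves are given as a description, because they chose the cells. Mki67, the proliferation antigen Ki-67, stood at 644, 305.3 and 347 UPM in gated T-led cells of GFPlow, GFPmed and GFPhigh, and at 6.85, 2.98 and 2.82 UPM in the others. Top2a, the topoisomerase that untangles sister chromatids, stood at 438, 610.5 and 372 UPM against 7.70, 2.98 and 3.76 UPM. Cdk1, the kinase that drives entry into mitosis, stood at 283, 32.1 and 173.4 UPM against 0.856, 0.426 and 0 UPM. In GFPmed Cdk1 rested on 2 UMIs of 1 cell. Ccnb2 and Ccna2, cyclins that partner with it, stood at 515, 80.3 and 173.4 UPM and at 644, 96.4 and 334 UPM. Ube2c, the ubiquitin-conjugating enzyme of the anaphase-promoting complex, stood at 515, 176.7 and 706 UPM, and Birc5, survivin of the chromosomal passenger complex, at 360, 96.4 and 297 UPM. Stmn1 stood at 1827.5, 787 and 1338 UPM against 10.7, 10.7 and 13.6 UPM. GFPmed was lowest of the 3 bins for 7 of these 8 genes and highest for Top2a. The make-up of the gate differed by bin. A sum of exactly 2 was held by 8 of 21 gated T-led cells in GFPlow, 14 of 21 in GFPmed and 8 of 32 in GFPhigh. Outside the gate no cell held more than 1 UMI of any gate gene, by construction.

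**Figure D2:**
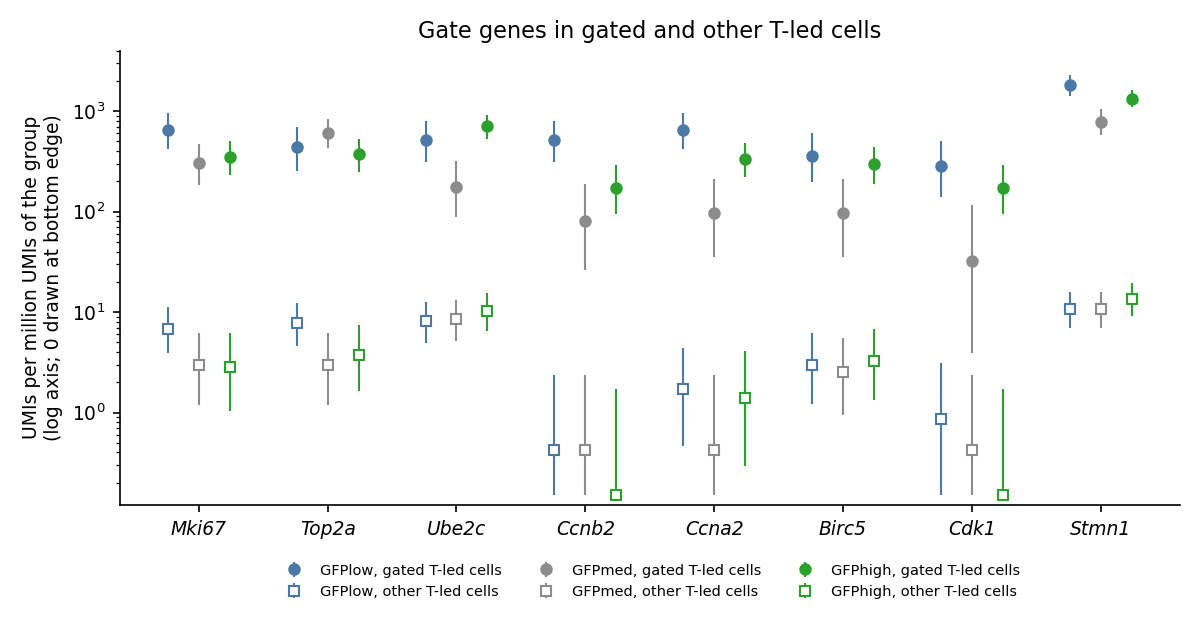
Levels of the 8 gate genes in gated (filled circles) and other (open squares) T-led cells of each bin, in UMIs per 1000000 UMIs on a log axis with exact Poisson 95% intervals. Gated GFPmed cells (grey) are lowest for 7 of 8 genes, for example 32.1 UPM of Cdk1 against 283 UPM in GFPlow.

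The regulatory sequence of the selected genes is shown because the genes that chose these cells are classically controlled through a few short promoter motifs. Below are the 250 bases before the RefSeq start (GRCm38.p6) of 4 gate genes and, for contrast, of Mcm5, which encodes a subunit of the replicative helicase. Capitals mark the cell cycle homology region (TTTGAA or TTTAAA), the CCAAT box (CCAAT) and E2F-type sites (TTTCCCGC, TTTCGCGC, TTTGGCGC, TTTGCCGC, TTCCCGCC, TTCGCGCC or TTGGCGCC), each searched on both strands with the reverse strand read as its complement, and overlapping matches are merged.
Cdk1 (chr10:69352913-69353162, minus strand): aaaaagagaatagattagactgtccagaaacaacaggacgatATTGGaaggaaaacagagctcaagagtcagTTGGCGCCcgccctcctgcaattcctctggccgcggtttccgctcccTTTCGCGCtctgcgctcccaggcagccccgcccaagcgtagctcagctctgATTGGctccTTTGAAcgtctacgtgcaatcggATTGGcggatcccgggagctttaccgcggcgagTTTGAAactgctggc
Ube2c (chr2:164769679-164769928, plus strand): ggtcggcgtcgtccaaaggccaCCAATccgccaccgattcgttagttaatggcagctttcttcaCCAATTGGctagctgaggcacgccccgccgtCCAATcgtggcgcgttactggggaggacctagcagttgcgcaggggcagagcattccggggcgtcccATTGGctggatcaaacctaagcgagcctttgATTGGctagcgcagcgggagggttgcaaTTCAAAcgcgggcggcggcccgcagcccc
Top2a (chr11:99024190-99024439, minus strand): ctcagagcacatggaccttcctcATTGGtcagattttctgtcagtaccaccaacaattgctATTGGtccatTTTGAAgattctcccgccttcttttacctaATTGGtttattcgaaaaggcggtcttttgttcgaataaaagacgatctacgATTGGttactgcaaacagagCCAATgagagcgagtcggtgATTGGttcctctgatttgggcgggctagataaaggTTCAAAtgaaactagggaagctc
Mki67 (chr7:135716380-135716629, minus strand): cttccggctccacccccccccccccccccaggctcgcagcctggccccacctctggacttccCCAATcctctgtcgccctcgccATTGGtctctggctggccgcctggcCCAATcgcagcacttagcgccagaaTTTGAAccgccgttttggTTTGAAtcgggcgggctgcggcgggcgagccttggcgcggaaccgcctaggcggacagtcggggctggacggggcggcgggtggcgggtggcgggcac
Mcm5 (chr8:75109259-75109508, plus strand): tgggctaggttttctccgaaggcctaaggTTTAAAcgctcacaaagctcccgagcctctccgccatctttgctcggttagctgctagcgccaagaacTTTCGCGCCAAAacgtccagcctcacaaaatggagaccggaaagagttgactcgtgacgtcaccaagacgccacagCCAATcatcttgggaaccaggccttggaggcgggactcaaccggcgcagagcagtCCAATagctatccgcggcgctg

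Of the 6 gate genes with an entry in the promoter table, 6 held a cell cycle homology region in this window and 5 a CCAAT box. Over all 27025 promoters of the table the shares were 25.6% and 34.2%, and over the 6657 promoters of genes measured here 17.3% and 36.7%. Cdk1 held 2 homology regions, 71 and 15 bases before the start, with the nearest CCAAT boxes, both in reverse, 80 and 48 bases before it, and it was the 1 gate gene of the 6 with E2F-type sites. Ube2c held 1, beginning 29 bases before the start, and Top2a held 2, the nearer beginning 23 bases before it. In the mitosis list 24 of 53 promoters (45.3%) held the homology region and 38 (71.7%) a CCAAT box, and 4 (7.55%) held an E2F-type site. In the S phase list 8 of 44 (18.2%) held the homology region, 27 (61.4%) a CCAAT box and 14 (31.8%) an E2F-type site, against 4.16% of all promoters and 7.89% of those of measured genes. Mcm5 held a merged run of E2F-type sites (TTTCGCGCCAAA) beside CCAAT boxes and 1 homology region. A match is a string of letters in a window and no measurement of binding.

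Genes were ranked by the ratio of gated over other cells of the same bin, combined over the 3 bins with a Mantel-Haenszel rate ratio after adding 0.5 UMI, with the gate genes left out. A gene was counted as higher or lower when the combined ratio passed 1.5-fold and each bin went the same way. Because the gate chose the cells in these libraries, the counts are descriptions with no test. Of 8625 measured genes (at least 50 UMIs), 663 were higher (7.69%) and 1490 lower (17.3%) in T-led gated cells. Over all 90 gated cells 815 were higher (9.45%) and 1875 lower (21.7%). The list counts below are to be read beside these shares. The excess of lower genes includes 469 genes with 0 UMIs in the 181828 UMIs of the 74 cells. The rule asks nothing of the interval, so genes with few UMIs can be counted within counting error. By interval alone the balance was the reverse. In T-led cells 876 genes had an interval above 0 and 404 one below 0, and over all 90 cells 1126 and 839 did. The median log2 ratio over all measured genes was -0.09 in T-led cells and -0.17 over all 90.

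Replication genes were higher as a group. Of 55 S phase genes 38 were measured, and 28 of these were higher and 0 lower in T-led gated cells, with a median log2 ratio of 1.89. Over all 90 cells 34 were higher and 1 lower, with a median of 2.52. Their summed level was 4299 UPM (3671 to 5002) in GFPlow, 6491 UPM (5873 to 7156) in GFPmed and 7766 UPM (7170 to 8398) in GFPhigh, against 1577, 1399 and 1626 UPM in other T-led cells. Each gated interval lies above the level of the other cells of its bin, and GFPlow was lowest among the gated cells.

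The enzymes that supply deoxynucleotides led the S phase list. Rrm2, the S phase subunit of ribonucleotide reductase (chr12:24708241-24714146), stood at 334.6, 257.07 and 222.9 UPM in gated T-led cells of GFPlow, GFPmed and GFPhigh against 11.1, 2.13 and 7.52 UPM. Its combined log2 ratio was 4.83 (4.28 to 5.38), from 47 UMIs in 16 cells, and 6.22 over all 90 cells. Rrm1, the large subunit of the same enzyme, had a log2 ratio of 3.82 (3.43 to 4.2), and it was lowest in GFPlow, at 180 UPM against 546 and 446 UPM in GFPmed and GFPhigh. Tk1, the cytosolic thymidine kinase, had a log2 ratio of 4.38 (3.78 to 4.99), with 180, 176.7 and 210.6 UPM. Lig1, the DNA ligase of lagging-strand synthesis, had one of 3.40 (2.73 to 4.08). Pcna, the sliding clamp of the polymerases, was abundant in both groups, at 541, 964 and 1078 UPM against 276.1, 216.2 and 247.1 UPM. The helicase subunits Mcm5 and Mcm3 had log2 ratios of 2.64 (2.10 to 3.17) and 2.55 (2.04 to 3.06). Pcna, Mcm5 and Mcm3 are outside the rule for named genes and were chosen after their values were seen.

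Mitotic genes that the gate did not use were higher as well. Of 70 listed genes 33 were measured, and 27 were higher and 0 lower in T-led gated cells, with a median log2 ratio of 2.83 (30 higher, 0 lower and a median of 3.22 over all 90). Their summed level was 10656 UPM (9654 to 11734) in GFPlow, 5141 UPM (4593 to 5737) in GFPmed and 9104 UPM (8457 to 9786) in GFPhigh, against 1784, 1992 and 2368.3 UPM. The order of the bins thus differed from that of the S phase list, with GFPmed lowest for mitosis and GFPlow lowest for replication.

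Cks1b and Cks2, small partners of cyclin-dependent kinases, had log2 ratios of 4.34 (3.82 to 4.85) and 3.95 (3.40 to 4.50). Cks2 stood at 308.9, 128.5 and 210.6 UPM in the 3 bins against 9.42, 8.10 and 13.2 UPM. Kif11, the kinesin that separates the spindle poles, had a log2 ratio of 4.25 (3.67 to 4.83), from 38 UMIs in 18 cells. Racgap1, which works in the central spindle at cytokinesis, had one of 3.33 (2.67 to 3.98). Smc4, a condensin subunit of the same list, did not follow them: it stood at 746, 434 and 892 UPM in gated cells against 593, 865 and 1089 UPM in the others, a log2 ratio of -0.36 (-0.61 to -0.11). Smc4 was chosen after its value was seen.

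The S phase and mitosis lists were high in partly different gated cells. A level of at least 4 times that of other T-led cells was reached for the S phase list alone in 17 of the 74 cells, for the mitosis list alone in 10, for both in 7 and for neither in 40. Of the 27 cells with a gate sum of at least 5, only 1 reached neither, and the split was 9, 10 and 7. Of the 30 cells with a sum of 2, 27 reached neither and 3 reached the S phase level, and of the 17 cells with 3 to 4, 12 reached neither and 5 reached the S phase level. Depth moved with the gate sum, with medians of 1521 UMIs at a sum of 2 and 3360 UMIs at 5 or more, and its part in this count was not tested. The plot of both lists by cell shows no gap at either level, and the cells high in both lists run on into those high in a single list.

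**Figure D3:**
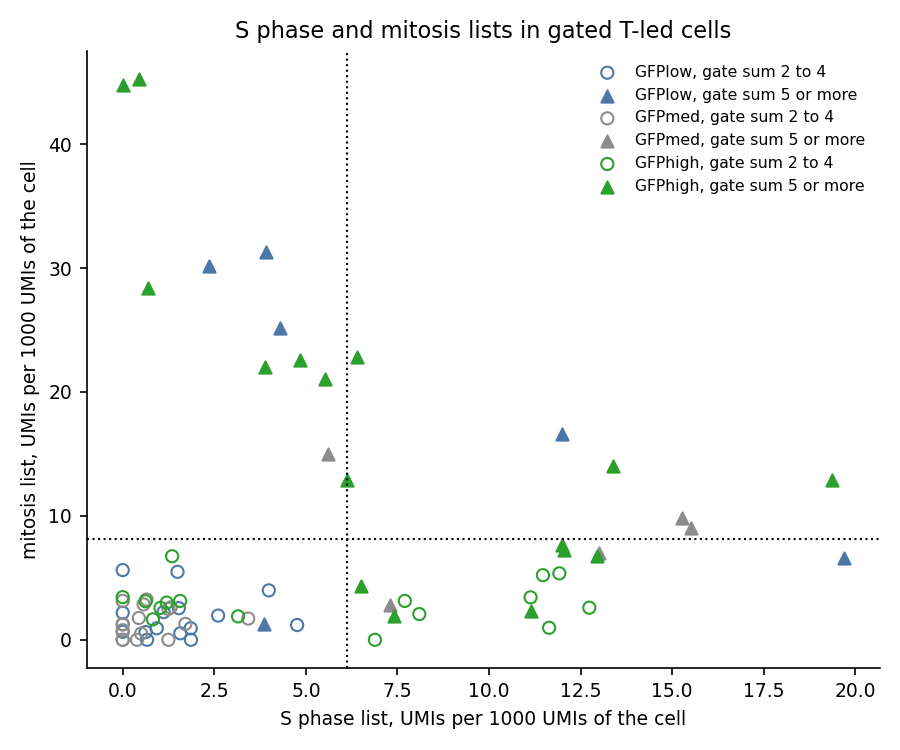
Each of the 74 T-led gated cells by its UMIs of the S phase list (horizontal) and of the mitosis list without gate genes (vertical), per 1000 UMIs of the cell; dotted lines are 4 times the level of other T-led cells. Filled triangles (gate sum of at least 5) occupy the high regions, and most open circles (sum 2 to 4) lie in the lower left, where 40 cells are.

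Most measured chromatin genes were higher, and a minority of tubulin genes. In T-led gated cells 19 of 29 measured chromatin genes were higher and 0 lower (median log2 ratio 1.35), with a summed level of 14466, 12789 and 16894 UPM against 5055, 4797 and 5740 UPM. Hmgb2, a chromatin protein of dividing cells, stood at 2317, 1125 and 1561 UPM against 196, 127.05 and 142.8 UPM, a log2 ratio of 3.38 (3.19 to 3.57) in 46 of the 74 cells. H2afx, the histone variant that is phosphorylated at DNA breaks, had one of 4.06 (3.75 to 4.38). The replication-dependent histone Hist1h2ao had the highest ratio among T-led cells, with 747 UMIs against 8.29 expected (log2 ratio 6.41, 6.22 to 6.60). Its coding sequence is shared with near-identical copies in the same cluster, so the gene to which these UMIs belong is uncertain. Histone genes filled ranks 1 to 14 among T-led cells, and the near-identical copies among them share this limit. Of 16 measured tubulin genes 5 were higher and 1 lower, with bin medians of 0.78, 0.33 and 0.20 on the log2 scale. Tuba1b and Tuba1c, alpha tubulins, had log2 ratios of 2.32 (2.16 to 2.49) and 2.13 (1.85 to 2.40), and Tubb5, a beta tubulin, had one of 1.93 (1.77 to 2.09).

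Genes of quiescence were lower in part. Of 25 measured brakes and quiescence genes 10 were lower and 3 higher in T-led gated cells (median log2 ratio -0.41), and 14 lower and 3 higher over all 90. Btg1, an antiproliferative cofactor chosen after its value was seen, stood at 1004, 659 and 669 UPM against 1445, 1347 and 1580 UPM. Ddit4, an inhibitor of the growth kinase mTORC1, had a log2 ratio of -1.83 (-2.70 to -0.95), and Slfn1, a schlafen gene named for restraint of thymocyte growth, one of -1.49 (-2.17 to -0.81). Cdkn2c was among the 3 that were higher. This gene, for an inhibitor of the G1 cyclin-dependent kinases, stood at 128.7, 32.1 and 123.9 UPM against 13.3, 6.82 and 9.40 UPM (log2 ratio 2.99, 2.24 to 3.74), from 17 UMIs in 7 cells. The summed list was level in GFPlow, at 6950 UPM against 6956 UPM, and below the other cells in GFPmed (4161 against 6217 UPM) and GFPhigh (3542 against 6307 UPM).

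Transcripts of activated, tissue-type Tregs were higher in gated cells, with the highest level in GFPlow. In the activated Treg list 14 of 33 measured genes were higher and 2 lower in T-led cells, with a median log2 ratio of 0.84 (13 higher, 2 lower and a median of 0.46 over all 90). The summed level was 16371 UPM (15123 to 17694) in GFPlow, 7600 UPM (6930 to 8316) in GFPmed and 4719 UPM (4257 to 5217) in GFPhigh, against 6092, 3436 and 3378 UPM in other T-led cells. In the log2 ratio of these sums the bins followed the order GFPlow at 1.43 (1.31 to 1.54), GFPmed at 1.15 (1.008 to 1.28) and GFPhigh at 0.48 (0.33 to 0.63). After thinning to 500 UMIs, 9 of 21, 6 of 21 and 9 of 32 gated T-led cells exceeded the 90th percentile of the other cells of their bin. In the 27 cells with a gate sum of at least 5 the level was 26347, 10246 and 5289 UPM, from 6, 5 and 16 cells. These 6 GFPlow cells held 473 of the 636 UMIs of the list in the 21 gated T-led GFPlow cells, so they carry most of that bin's value. CD8 T or NK cell markers, of which Gzmb is in both lists, stood at 386 against 107.01 UPM in GFPlow, but 10 of the 15 UMIs were in 1 cell, without which the level was 135.3 UPM. Their part in the activated list was not tested.

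Among these genes Lgals1, the lectin galectin-1, stood at 1055, 852 and 471 UPM against 201.2, 116.4 and 138.6 UPM, a log2 ratio of 2.31 (2.05 to 2.57). Vim, the intermediate filament vimentin, stood at 2265, 675 and 557 UPM against 488, 324 and 324 UPM. S100a6, a calcium-binding protein, stood at 1698.8, 386 and 111.5 UPM against 370, 104.5 and 61.1 UPM. Lgals1, Vim and S100a6 were chosen after their values were seen. Anxa2, a membrane-binding annexin, had a log2 ratio of 3.34 (2.84 to 3.84), but its 40 UMIs came from 10 cells and 19 of them from 1 cell. Ccr4, a skin and lung homing receptor, had 0 UMIs where 2.76 were expected, and Tigit, a coinhibitory receptor, 1 where 4.58 were expected. Gzmb, granzyme B, had 21 UMIs in 2 cells and was not higher in each bin.

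Resting Treg genes were lower. Of 24 measured genes 9 were lower and 0 higher in T-led gated cells (median log2 ratio -0.52), and 16 lower and 0 higher over all 90 (median -0.95). Their summed level was 5199, 3888 and 3542 UPM against 6194, 6353 and 5518 UPM. Il7r, the interleukin 7 receptor chain of resting T cells, stood at 25.7, 32.1 and 24.8 UPM against 200, 105.3 and 76.1 UPM, each gated value resting on 1 or 2 UMIs. Bcl2, a survival factor, stood at 154.4, 160.7 and 247.7 UPM against 390, 481 and 482 UPM (log2 ratio -1.21, -1.68 to -0.74). Ly6c1, a surface antigen of central Tregs, had a log2 ratio of -1.37 (-2.05 to -0.69), and 13 of its 17 UMIs came from GFPmed, at 208.9 UPM against 321.9 UPM. S1pr1, the receptor for egress from lymphoid organs, was named through the homing list and counted among its lower genes. It stood at 695, 337 and 148.6 UPM against 712, 633 and 618 UPM, and the GFPlow values lay close together.

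Genes of the Treg signature were less uniform. In T-led cells 3 of 20 were lower and 2 higher (median log2 ratio -0.36), near the shares over all measured genes (17.3% and 7.69%). Over all 90 cells 11 were lower and 1 higher, against 21.7% and 9.45% of all measured genes. Foxp3, the factor that defines the lineage, stood at 541 UPM (334.6 to 826), 289.2 UPM (171.4 to 457) and 185.8 UPM (103.98 to 306) in gated T-led cells, against 396, 328.3 and 373 UPM. Only in GFPhigh does the interval lie below the level of the other cells. Il2ra, the high-affinity interleukin 2 receptor chain, stood at 128.7 UPM (41.8 to 300), 224.9 UPM (122.97 to 377) and 284.9 UPM (181 to 427) against 324, 398 and 526 UPM, lower in each bin, with a log2 ratio of -0.92 (-1.36 to -0.48). Nt5e, the ecto-enzyme CD73, and Socs2, a suppressor of cytokine signalling, had log2 ratios of -1.58 (-2.70 to -0.47) and -2.002 (-3.22 to -0.79). Of 17 measured genes of the interleukin 2 and STAT5 list 9 were lower and 0 higher (median -0.62). Socs1, an inhibitor of JAK kinases, had 6 UMIs where 25.3 were expected. Tnfrsf18, the costimulatory receptor GITR, had a log2 ratio of -0.57 and was not among the lower genes. Cd4 stood at 386, 386 and 483 UPM against 568, 400 and 473 UPM. The whole T cell marker list was lower by a median log2 of -0.28, with 1 of 12 genes lower past 1.5-fold.

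**Figure D4:**
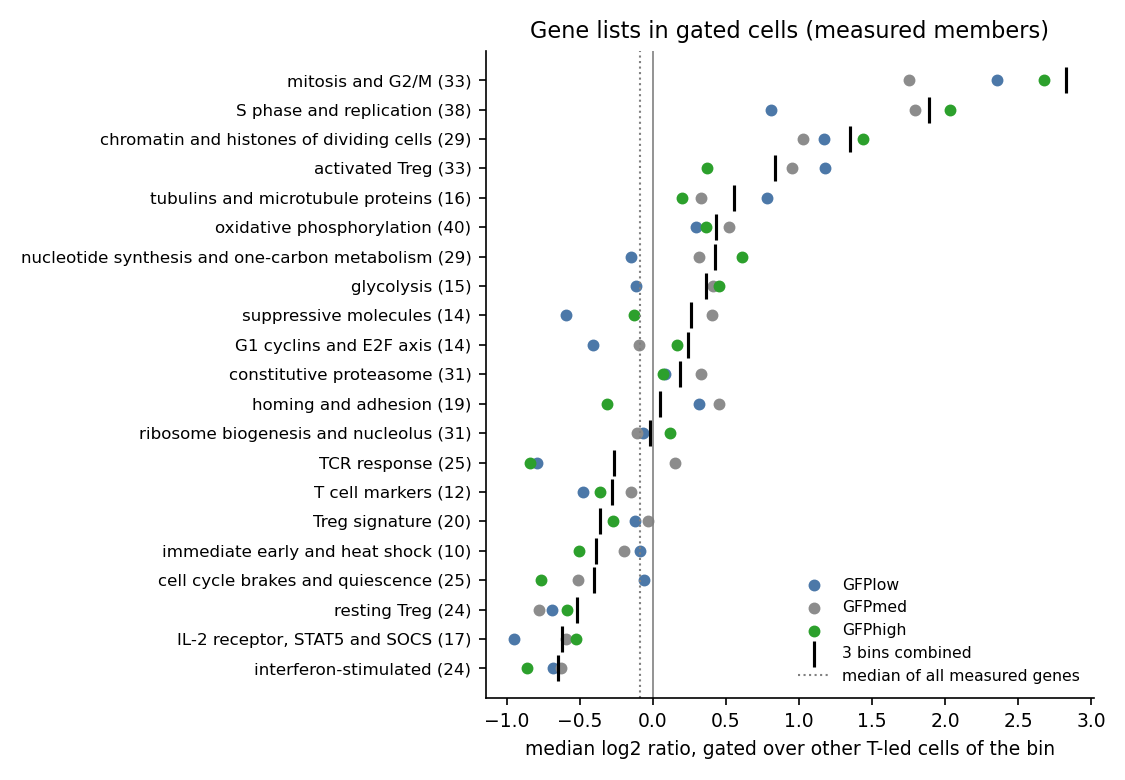
Median log2 ratio of gated over other T-led cells for each gene list other than those of other cell types, with the number of measured genes in brackets; dots are the 3 bins, black bars the bins combined, and the dotted line the median of all measured genes (-0.09). The mitosis (2.83) and S phase (1.89) lists stand highest, and the interferon-stimulated list (-0.65) lowest.

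Metabolic lists differed less. Oxidative phosphorylation genes had 11 of 40 higher and 0 lower (median log2 ratio 0.43), with Ndufb9, a complex I subunit, at 0.97 (0.51 to 1.43) and Cox6a1, a cytochrome oxidase subunit, at 0.73 (0.45 to 1.005). None of 15 measured glycolysis genes passed both parts of the rule for higher genes, though 5 had intervals above 0, and their median was 0.36. The summed glycolysis list had a log2 ratio of 0.65 (0.53 to 0.77), against 0.36 (0.30 to 0.42) for oxidative phosphorylation. Gapdh stood at 205.9, 803 and 694 UPM against 254.3, 255.4 and 330 UPM, and Pkm at 180, 578 and 793 UPM against 239.3, 237.5 and 286.6 UPM. Both enzymes were thus above the other cells in GFPmed and GFPhigh and not in GFPlow. Of 29 measured nucleotide and one-carbon genes 8 were higher and 2 lower (median 0.42), with Psat1, an enzyme of serine synthesis, at a log2 ratio of 2.03 (1.53 to 2.53). Ribosome biogenesis genes had 0 of 31 higher and 2 lower (median -0.02). Myc, a regulator of growth, had 14 UMIs where 30.8 were expected, 8 of them in 1 cell. G1 cyclin and E2F axis genes had 2 of 14 higher and 3 lower (median 0.24).

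Interferon-stimulated genes were lower, with 11 of 24 lower and 0 higher (median log2 ratio -0.65) and summed levels of 2934, 2747 and 2081 UPM against 4366, 3835 and 3132 UPM. Gbp4, an interferon-inducible GTPase, had 7 UMIs where 22.4 were expected. The next counts stand beside 17.3% lower and 7.69% higher over all measured genes. Immediate early and heat shock genes had 3 of 10 lower and 1 higher (median -0.39), proteasome genes 1 of 31 lower and 2 higher (median 0.18), and suppressive molecules 2 of 14 in each direction (median 0.26). Homing genes had 4 of 19 higher and 3 lower (median 0.05). Among them Cxcr4, a chemokine receptor, stood at 205.9, 80.3 and 61.9 UPM against 37.7, 25.6 and 38.1 UPM (log2 ratio 1.49, 0.81 to 2.17). Its ratio over all 90 cells turned below 0 when cells were thinned to 500 UMIs before gating.

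The genes that separate the Nr4a1-GFP bins were then read within the gate. Nr4a1 (chr15:101254269-101274795) is the gene whose reporter set the bins, so its order across them is no finding. Among other T-led cells it stood at 35.1 UPM in GFPlow, 85.7 UPM in GFPmed and 360 UPM in GFPhigh. In gated cells it stood at 51.5 UPM (6.23 to 185.96), 80.3 UPM (26.1 to 187.5) and 37.2 UPM (7.66 to 109), from 2, 5 and 3 UMIs. The gated GFPhigh cells thus lay below the other GFPhigh cells beyond counting error, and the 27 cells with a gate sum of at least 5 had 0 UMIs of Nr4a1. Egr1, another early gene of the receptor, had 4 UMIs where 12.3 were expected. Tnfrsf9, the costimulatory receptor 4-1BB, was highest in GFPhigh in both groups: 77.2, 16.1 and 247.7 UPM in gated cells against 20.1, 52.4 and 274.4 UPM. Its gated UMIs numbered 24 over the bins. A count of 3 UMIs amounts to 77.2 UPM in gated GFPlow and 48.2 UPM in gated GFPmed cells, so those values rest on at most 3 UMIs each. Penk, the precursor of enkephalin peptides, stood at 0 of 38850 UMIs in GFPlow (interval 0 to 94.95 UPM), 112.5 UPM in GFPmed and 74.3 UPM in GFPhigh. These gated values rested on 13 UMIs, and the other cells stood at 6.42, 5.97 and 132.5 UPM. Over the whole TCR response list 2 of 25 measured genes were higher and 2 lower (median log2 ratio -0.27), against 7.69% and 17.3% of all measured genes.

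S100a4 and Ccr2 were highest in GFPlow both inside and outside the gate. S100a4, a calcium-binding protein of effector cells (chr3:90603771-90606045), stood at 772 UPM (521 to 1102), 193 UPM (99.6 to 337) and 37.2 UPM (7.66 to 109) in gated T-led cells against 261.5, 41.4 and 25.8 UPM in others, a combined log2 ratio of 1.57 (1.14 to 2.003). Ccr2, a chemokine receptor, stood at 334.6 UPM in GFPlow, from 13 UMIs, against 95.9 UPM, and had 1 UMI in GFPmed and 0 in GFPhigh. Igfbp4, a marker of resting Tregs, stood at 308.9, 208.9 and 99.1 UPM against 441, 483 and 171.01 UPM. The intervals of S100a4 in GFPlow and GFPmed do not reach the level of the other cells of the bin, and that in GFPhigh does.

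**Figure D5:**
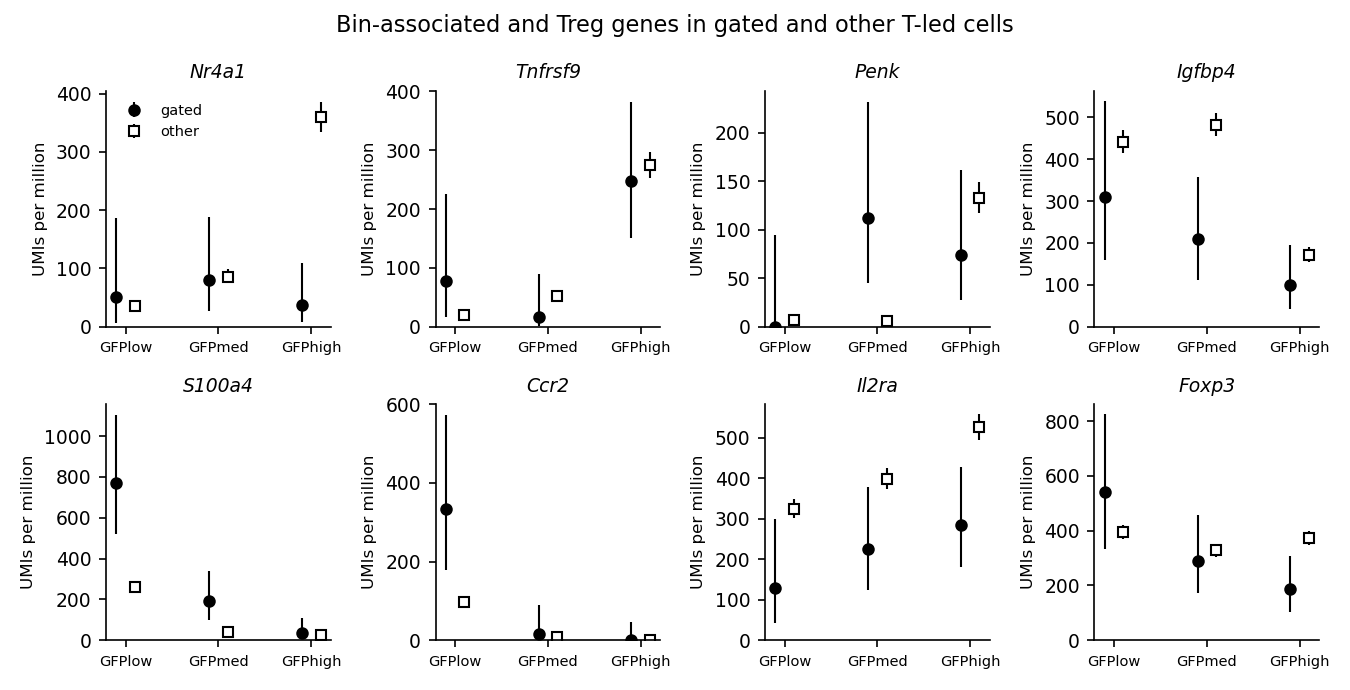
Levels of 8 genes in gated (filled circles) and other (open squares) T-led cells of the 3 Nr4a1-GFP bins, in UMIs per 1000000 UMIs with exact Poisson 95% intervals. Nr4a1 is at 37.2 UPM in gated GFPhigh cells and 360 UPM in the others, and S100a4 in gated GFPlow cells is at 772 UPM against 261.5 UPM.

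T-led cells with a gate sum of at least 5 were 6 of 2071 in GFPlow (0.29%, 0.11 to 0.63%), 5 of 1490 in GFPmed (0.34%, 0.11 to 0.78%) and 16 of 1722 in GFPhigh (0.93%, 0.53 to 1.505%). After thinning to 500 UMIs the same limit was met by 3, 0 and 4 cells, so the share could not be ordered at this depth. The lower end of the ranking was set by absence: the 15 genes with the lowest ratios over all 90 cells had 0 UMIs in gated cells. Idnk, a gluconate kinase, was the most abundant of them, with 0 UMIs where 23.02 were expected from other cells (16.2 among T-led cells).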

How the data were processed

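The authors deposited raw UMI counts per gene and cell, with all 3 bins in a single table of 23725 genes and 6106 cells. Per the submitters' processing notes, TopHat2 and SAMtools were used with mm10. Versions, counting program and UMI rule are not given in the sources used here. Counts summed to 98.7% of the UMIs in the labels. Cells under 500 UMIs (671) were left out. No doublets were removed. Barcodes shared by more than 1 library numbered 95, and 2 gated cells carried one.

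Within each bin, counts of gated and of other cells were added up per gene and given as UPM. Combined ratios are Mantel-Haenszel with Greenland-Robins intervals and 0.5 UMI added, levels carry exact Poisson and shares exact Clopper-Pearson intervals, all computed with numpy 2.4.6 and scipy 1.17.1. The ratio code was tested on simulated data. No test was run, since each bin is 1 library and the gate used the same counts. The named genes were the gate genes, the 20 highest and 15 lowest ratios, up to 4 per list (at least 100 UMIs) and 9 set genes. The text gives those that carry each group, and marks additions. The members and lists were chosen with earlier results of these data known. Promoters come from RefSeq on GRCm38.p6.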

Additional observations from a re-analysis of the deposited data

Results flagged for a closer look

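Relative to other T-led cells of the bin, the summed TCR response list had a log2 ratio of 0.0936 in GFPlow (interval -0.24 to 0.41), 0.269 in GFPmed (0.03 to 0.50) and -0.786 in GFPhigh (-1.02 to -0.56). It is given here because the intervals of GFPmed and GFPhigh lie on opposite sides of 0. The homing and adhesion list is given for the same reason in GFPlow and GFPhigh, with 0.393 in GFPlow (0.20 to 0.58), 0.0153 in GFPmed (-0.18 to 0.20) and -0.527 in GFPhigh (-0.73 to -0.33). Neither difference between bins was tested, since each bin is 1 library. The lists examined in this way numbered 26. In GFPmed 1 gated cell alone held 16 TCR response UMIs after thinning, against a median of 1 in the bin.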

How the results depend on the processing

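Over all 90 gated cells, 815 genes were higher and 1875 lower, and the S phase, mitosis, activated and resting Treg medians were 2.519, 3.221, 0.4587 and -0.9455. Their signs were kept in all 16 alternatives. With cells thinned to 500 UMIs before gating the counts became 286 and 3394, the S phase and mitosis medians 1.595 and 2.12, and the gated shares 0.6594%, 0.5856% and 0.7887% (from 1.272%, 1.887% and 1.915% in GFPlow, GFPmed and GFPhigh). Leaving out every cell with at least 2 marker UMIs of another cell type, 363 genes were higher, the 4 medians were 1.547, 2.167, 0.2167 and -0.2895, and the shares in GFPlow and GFPmed 0.6184% and 1.154%. Without cells above the 99th percentile of depth, 503 genes were higher, the S phase, mitosis and resting medians were 1.517, 1.716 and -0.474, and 1.183% of GFPmed cells were gated. Among T-led cells (an alternative chosen after seeing the data) the S phase, mitosis and activated medians were 1.888, 2.83 and 0.8367. Equal weight per cell gave S phase and mitosis medians of 1.861 and 2.641, and weighting other cells to the gated depth gave mitosis and activated medians of 3.565 and 0.83. With genes of at least 200 UMIs the counts were 458 and 1054 and the mitosis median 2.003. With genes of at least 1 UMI, 3125 were lower and that median was 4.027. Scaling to the median ratio left 1236 lower. Gated shares were 1.893% of GFPlow cells at 1000 UMIs or more, 0.9109% of GFPmed cells at a gate sum of 3 and 1.07% of GFPhigh cells without Stmn1. Leaving out a bin gave counts of between 1062 and 1201 higher and between 2438 and 2546 lower. Fewer bins then had to share a direction, and the part of this in the change was not tested. Leaving out GFPlow, GFPmed or GFPhigh moved 5, 21 and 13 results past their limits and reversed 0. Signs of 7 list medians turned in at least 1 alternative: TCR response (0.02481 without the deepest cells), proteasome, nucleotide synthesis and G1 cyclins (-0.2199, -0.3141 and -0.457 thinned), ribosome biogenesis and homing (0.04382 and 0.04986 without marker-bearing cells), and suppressive molecules, near 0 at -0.01506, in 6 of 16. Signs of single genes were followed only for genes named above that were counted as higher or lower over all 90 cells. They turned for Hbb-bt and Hba-a2 (-0.2448 and -0.8449 without marker-bearing cells, -0.9786 and -2.594 among T-led cells), for Gzmb (-0.2467 without marker-bearing cells) and for Cxcr4 (-1.383 thinned). Genes outside that set also turned, for example Hbb-bs (-1.39) and Car2 (-1.18) among T-led cells. Beyond the change in cells or genes that each alternative makes, the cause was not tested. Leaving out shared barcodes moved 0 of 92 results past its limit. No paired analysis was possible because each bin is 1 library and the bins share only the number 1. The 181828 UMIs of T-led gated cells limit every value for genes with few UMIs.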
